A study of Homo sapiens with 24 samples.

Results

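The genes described here are 10 genes of cellular iron homeostasis, several of whose mRNAs carry an iron-responsive element (IRE): FTH1, FTL, TFRC, SLC11A2, SLC40A1, ACO1, IREB2, FBXL5, HMOX1 and NCOA4. They were found in a table of 20345 Ensembl gene IDs by matching each ID to its gene symbol in the Gencode annotation of hg19. By this match 9 of the 10 genes were found. The ID that the annotation gives for NCOA4, the receptor that delivers ferritin to autophagosomes, matched no row. Since 708 IDs of the table are not in that annotation, NCOA4 may stand there under another ID, and it was not analysed here. SLC40A1 had between 0 and 3 counts in every library and did not pass the filter on low counts, so 8 genes were tested.

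Cells hold their free iron within narrow limits mainly by controlling mRNAs. When iron is scarce, the iron regulatory proteins IRP1 (gene ACO1) and IRP2 (gene IREB2) bind IREs, which are short stem-loops. Binding in a 5′ UTR, as in the ferritin mRNAs FTH1 and FTL, blocks the start of translation, whereas binding in the 3′ UTR of TFRC, the transferrin receptor mRNA, protects that mRNA from decay. When iron is plentiful, IRP1 turns into an aconitase, the ubiquitin ligase subunit FBXL5 marks IRP2 for degradation, ferritin is made and TFRC mRNA is lost. The IRE of FTH1 or FTL therefore acts on the share of the mRNA found on polysomes, and those of TFRC act on the amount of mRNA.

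The stem-loops are shown because they are the feature by which iron controls the ferritin and TFRC mRNAs. The UTRs annotated in hg19 were searched for an unpaired C, 5 bases, the loop CAGTGN and 5 further bases that pair with the first 5, with A-T, G-C and G-T pairs allowed. All 5 pairs were present in a 5′ UTR of 38 of 19037 genes (0.2%) and in a 3′ UTR of 142 of 19270 genes (0.737%), and FTH1, FTL, SLC40A1 and TFRC were among them. Capitals mark the unpaired C and the loop, and each sequence is given 5′ to 3′ on the strand of the mRNA.
FTH1, 5′ UTR, chr11:61735047-61735073, minus strand: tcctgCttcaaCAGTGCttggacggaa
FTL, 5′ UTR, chr19:49468593-49468619, plus strand: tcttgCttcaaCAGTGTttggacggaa
SLC40A1, 5′ UTR, chr2:190445388-190445414, minus strand: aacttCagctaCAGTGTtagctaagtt
TFRC, 3′ UTR, chr3:195777851-195777877, minus strand: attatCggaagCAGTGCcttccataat
TFRC, 3′ UTR, chr3:195777447-195777473, minus strand: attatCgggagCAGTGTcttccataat
TFRC, 3′ UTR, chr3:195777382-195777408, minus strand: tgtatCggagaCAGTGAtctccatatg
TFRC, 3′ UTR, chr3:195777335-195777361, minus strand: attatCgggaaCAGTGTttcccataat
SLC11A2, 3′ UTR, chr12:51382053-51382079, minus strand: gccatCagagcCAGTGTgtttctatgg

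The ferritin stem-loops lay 39 bases (FTH1) and 33 bases (FTL) from the start of the 5′ UTR and shared the same upper stem. TFRC had 4 matches within its 3′ UTR. The SLC11A2 match paired at 4 of 5 positions, a rule that 986 of 19270 genes (5.12%) met in a 3′ UTR. ACO1 and IREB2 had matches of this looser kind only, and no match was found for HMOX1 or FBXL5. Of the 5 positions flanking the match on each side, 1 could pair for SLC11A2, 1 for ACO1 and 3 for IREB2. Pairs were counted position by position with no bulge allowed, so a stem with a bulge would be undercounted. By this count the search does not set the SLC11A2 match apart from those of ACO1 and IREB2. It cannot decide whether a search that allows a bulge would. A match is a description of letters and not a test of IRP binding.

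RNA came, per the labels of all samples, from A2058, a human melanoma cell line, grown as 12 cultures in 4 conditions with 3 replicate cultures each. Cells received a control siRNA (siCTRL) or siRNAs against LSM14A (siLSM14A), a P-body protein that binds mRNA, and were left untreated (NT) or given hydroxyurea (HU) at 10 mM for 2 h. HU blocks ribonucleotide reductase, an enzyme with an iron centre, and is used here as a genotoxic stress. Cycloheximide, which holds ribosomes on mRNA, was added to all cultures before collection. Each culture gave 1 library of total RNA and 1 of RNA from the heavy polysome fractions, both selected for poly(A). Light polysomes and single ribosomes were not sequenced on their own. The ratio of polysomal to total RNA is therefore not the share of an mRNA on all polysomes. Read counts per gene were scaled with TMM factors to CPM, a level relative to the size of the library. The 12 total libraries held 24789280 to 40645263 counts and the 12 polysomal libraries 28776634 to 44897501. LSM14A itself was at 84.3 ± 2.39 CPM (SD, n = 3) in total RNA of siCTRL NT and 7.53 ± 0.72 CPM in siLSM14A NT, and at 86.2 ± 5.36 against 6.81 ± 0.777 CPM with HU. All 10 markers of melanocytes and melanoma lines were above 1 CPM, while the leukocyte markers summed to at most 1.4 CPM, the endothelial marker to 0.205 and the erythroid markers to 0.0328. Of the epithelial markers KRT14 alone was above 1 CPM on average, and the 3 fibroblast markers DCN, PDGFRA and LUM summed to 16.5 to 47 CPM; their part in the results was not tested. Total RNA in bulk cannot tell fewer cells from less RNA per cell, and p-values measure the spread between replicate cultures of 1 line.

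Compared per kb of mRNA, the ferritin mRNAs were by far the most abundant members in total RNA. The median over the 12 total libraries was 2620 CPM per kb for FTH1 and 2552 for FTL, followed by 128 for TFRC. The other members lay lower, at 14.3 for FBXL5, 12.6 for SLC11A2, 12.5 for HMOX1, 10.4 for IREB2 and 6.27 for ACO1. The condition means of FBXL5 (13.3 to 16.1), SLC11A2 (11.9 to 13.9) and HMOX1 (10.9 to 14.4) overlapped, as did those of HMOX1 and IREB2 (9.87 to 11.5), so the order of these neighbours was not fixed. SLC40A1, which encodes ferroportin, the exporter of iron from cells, had no count in 10 of 12 total and 11 of 12 polysomal libraries. A count of 0 allows a level of up to 0.0654 to 0.107 CPM in total RNA and 0.0754 to 0.116 CPM in polysomal RNA, for counting error only.

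**Figure D1:**
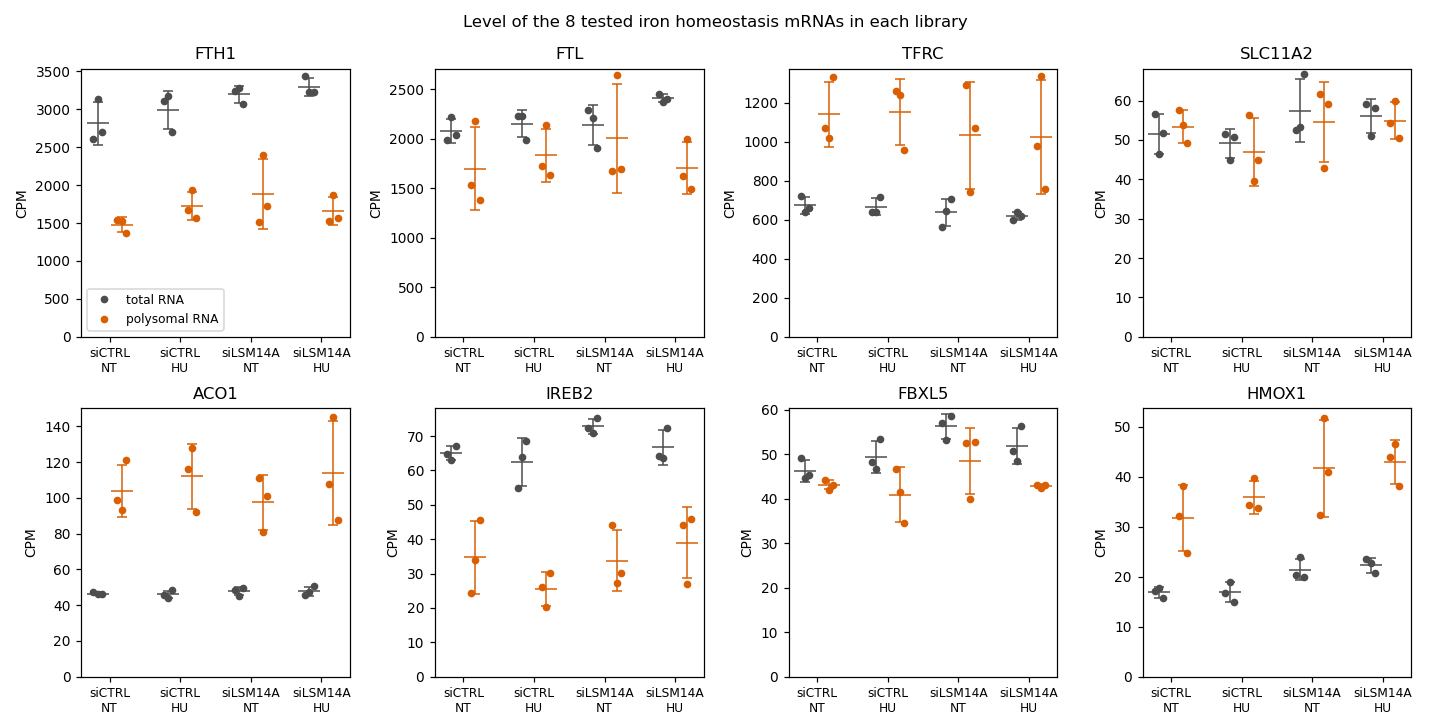
Level in CPM (linear axes from 0) of the 8 tested genes in every library, by condition, with total RNA in grey and polysomal RNA in orange; points are replicate cultures 1 to 3 from left to right, and bars are the mean ± SD (n = 3). FTH1 and IREB2 were lower, and TFRC, ACO1 and HMOX1 higher, in all 12 polysomal than in all 12 total libraries.

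FTH1, the ferritin heavy chain that oxidises iron for storage, was lower in polysomal than in total RNA in every condition. In siCTRL NT the 3 cultures had 2613, 3134 and 2694 CPM in total RNA and 1536, 1529 and 1362 CPM in polysomal RNA. In siCTRL HU they had 3105, 3170 and 2702 against 1668, 1933 and 1569 CPM. Total and polysomal libraries did not overlap in either condition. In siLSM14A NT the values were 3246, 3283 and 3073 CPM in total and 1519, 2397 and 1718 CPM in polysomal RNA. In siLSM14A HU they were 3433, 3221 and 3229 against 1532, 1866 and 1561 CPM. The polysomal library of siLSM14A NT replicate 2 was the highest of the 12, and still lay below the lowest total library. On the log2 scale, polysomal against total RNA changed by -0.94 ± 0.121 (SE, adjusted p = 0.000508) in siCTRL NT and -0.78 ± 0.139 (adjusted p = 0.000462) in siCTRL HU, by the quasi-likelihood F-test of edgeR, with p adjusted over all genes tested (Benjamini-Hochberg). The change was -0.74 ± 0.164 (adjusted p = 0.00393) in siLSM14A NT and -0.99 ± 0.0993 (adjusted p = 9.24e-05) in siLSM14A HU. Without siLSM14A NT replicate 3 the change in that condition was -0.72 with an adjusted p of 0.0561.

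The count of FTH1 has limits of its own. Its exons share 63.2% of their bases with BEST1 on the opposite strand, and the strand setting of the counting is not given in the sources used here; BEST1 itself stood at 6.47 to 15.6 CPM. Of the 100-base windows of the FTH1 mRNA, 22.6% also occur letter for letter in 1 of its 25 annotated pseudogenes, against 3.37% for FTL and its 16 pseudogenes. How reads from such windows were assigned was not tested.

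FTL, the ferritin light chain that promotes the growth of the iron core, was nearer to balance between the fractions than FTH1. The 3 siCTRL NT cultures had 1985, 2217 and 2038 CPM in total RNA and 1533, 2177 and 1385 CPM in polysomal RNA, and the siCTRL HU cultures had 2235, 2228 and 1993 against 1724, 2140 and 1640 CPM. The siLSM14A NT cultures had 2288, 2216 and 1907 against 1674, 2643 and 1697 CPM, and in these 3 conditions the fractions overlapped. In siLSM14A HU they did not, with 2454, 2377 and 2402 CPM in total RNA and 1628, 1998 and 1493 CPM in polysomal RNA. Its log2 change was -0.50 ± 0.112 (SE, adjusted p = 0.00406) in siLSM14A HU, and -0.30, -0.21 and -0.07 in siCTRL NT, siCTRL HU and siLSM14A NT, which did not pass the test (adjusted p = 0.159, 0.194 and 0.767). Without siLSM14A HU replicate 1 the adjusted p in that condition was 0.0811.

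The 2 ferritin mRNAs were thus set apart by fraction, although their IREs share the upper stem shown above. The pair was compared after its values were seen and carries no test. The ratio of FTH1 to FTL per kb was 0.953 to 1.17 over the 12 total libraries (median 1.01) and 0.509 to 0.757 over the 12 polysomal libraries (median 0.687). In each of the 12 cultures the log2 ratio of polysomal to total RNA, termed translation efficiency (TE), was higher for FTL than for FTH1, by 0.36 to 1.01 with a median of 0.55. A GC correction, which takes out of each library the trend of level on the GC content of the exons, bore on this gap, since the exons of FTH1 were 49.5% and those of FTL 56% GC. With it the changes of FTL were -0.84, -0.89, -0.63 and -1.0 in siCTRL NT, siCTRL HU, siLSM14A NT and siLSM14A HU. Those of FTH1 were -1.06, -0.89, -0.84 and -1.06, so that the ferritins lay closer together, and FTL passed the test in all 4 conditions.

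**Figure D2:**
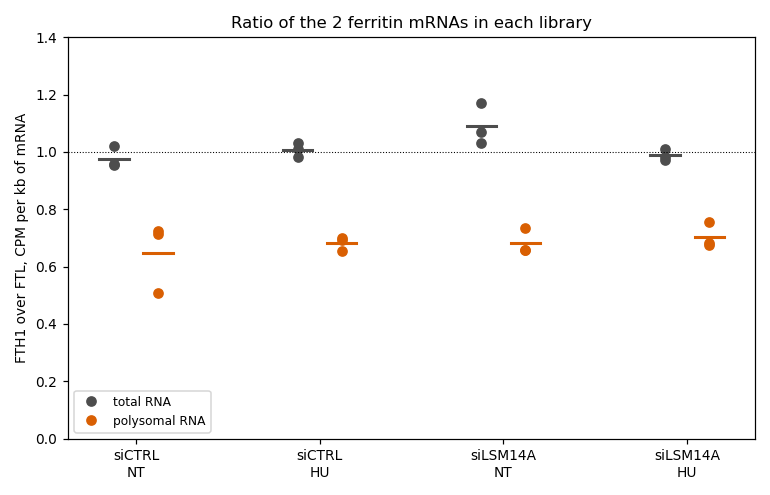
Ratio of FTH1 to FTL (CPM per kb of mRNA, linear axis from 0) in each library by condition; points are libraries, short lines are means of 3, and the dotted line marks equal levels. The total libraries lie between 0.953 and 1.17 and the polysomal libraries between 0.509 and 0.757.

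TFRC, the receptor that brings in transferrin-bound iron, was higher in polysomal than in total RNA in every culture. In siCTRL NT it stood at 723, 638 and 662 CPM in total RNA and at 1071, 1022 and 1331 CPM in polysomal RNA, and in siCTRL HU at 642, 642 and 717 against 1264, 1240 and 957 CPM. In siLSM14A NT the values were 566, 648 and 705 against 1291, 744 and 1071 CPM, and in siLSM14A HU 598, 643 and 619 against 980, 1338 and 759 CPM. No polysomal library fell to the level of any total library, but those of siLSM14A NT replicate 2 and siLSM14A HU replicate 3 came close. TFRC changed by 0.75 ± 0.13 (SE) in siCTRL NT, 0.81 ± 0.135 in siCTRL HU, 0.72 ± 0.19 in siLSM14A NT and 0.73 ± 0.176 in siLSM14A HU, with adjusted p-values of 0.00145, 0.000286, 0.00933 and 0.00603. Leaving out siLSM14A NT replicate 1 gave 0.44 (adjusted p = 0.06), leaving out replicate 3 gave 0.77 (adjusted p = 0.0701), and leaving out siLSM14A HU replicate 1 gave 0.74 (adjusted p = 0.0636). With the GC correction the changes of TFRC, whose exons over all annotated transcripts are 42.2% GC, were 1.18, 1.37, 1.17 and 1.17 in the same order.

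SLC11A2, the carrier (DMT1) that moves ferrous iron out of endosomes, was about equal in the fractions. Its level ran from 44.9 to 66.7 CPM in total and from 39.5 to 61.7 CPM in polysomal RNA, and its log2 change lay between -0.04 and 0.05 in the 4 conditions. The widest 95% interval of these was -0.42 to 0.33, in siLSM14A NT. With the GC correction the change was 0.28 to 0.36, past the test in 3 conditions (adjusted p = 0.0286, 0.0419 and 0.0455) and at an adjusted p of 0.0894 in siLSM14A NT.

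The mRNAs of the 2 iron regulatory proteins differed in direction. ACO1 (IRP1) had 47.2, 46.2 and 46.2 CPM in total RNA and 98.8, 93.4 and 121 CPM in polysomal RNA of siCTRL NT, and 45.7, 44.2 and 48.3 against 116, 128 and 91.9 CPM in siCTRL HU. In siLSM14A NT it had 48.7, 45.4 and 49.6 against 111, 80.7 and 101 CPM, and in siLSM14A HU 45.7, 47.1 and 50.7 against 108, 145 and 87.8 CPM. Every polysomal value was above every total value. ACO1 changed by 1.16 ± 0.125 (SE, adjusted p = 0.000331), 1.30 ± 0.13 (adjusted p = 1.15e-05), 1.06 ± 0.138 (adjusted p = 0.000282) and 1.25 ± 0.166 (adjusted p = 0.000287) in siCTRL NT, siCTRL HU, siLSM14A NT and siLSM14A HU. With the GC correction it was 1.33, 1.55, 1.25 and 1.46.

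IREB2 (IRP2) moved the other way. It had 64.7, 63.1 and 67.1 CPM in total RNA and 24.4, 34.1 and 45.5 CPM in polysomal RNA of siCTRL NT, and 54.9, 63.9 and 68.5 against 26.2, 20.3 and 30.1 CPM in siCTRL HU. In siLSM14A NT it had 72.5, 71 and 75.3 against 44, 27.3 and 30.1 CPM, and in siLSM14A HU 64.3, 63.5 and 72.4 against 44.2, 27.1 and 45.8 CPM. All polysomal libraries were below all total libraries, with a wide spread between the polysomal replicates. IREB2 changed by -0.91 ± 0.204, -1.27 ± 0.156, -1.08 ± 0.177 and -0.77 ± 0.187 (SE) in siCTRL NT, siCTRL HU, siLSM14A NT and siLSM14A HU, with adjusted p-values of 0.00481, 3.7e-05, 0.000863 and 0.00607. Without siCTRL NT replicate 2 the adjusted p in that condition was 0.071. IREB2 TE was below ACO1 TE in each of the 12 cultures, with a difference of -3.18 to -1.45 log2 units, a comparison chosen after the values were seen. IREB2 has the lowest GC content of the 8 genes (39.6%), and with the GC correction its change was -0.34, -0.54, -0.49 and -0.27, with an adjusted p of 0.0759 in siLSM14A HU.

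FBXL5, the iron-sensing subunit that directs IRP2 to the proteasome, ran from 44.7 to 58.6 CPM in total RNA and from 34.5 to 52.8 CPM in polysomal RNA. Its TE was below 0 in all 12 cultures but small, at -0.63 to -0.05. Its change was -0.11, -0.25, -0.18 and -0.27 in siCTRL NT, siCTRL HU, siLSM14A NT and siLSM14A HU, and passed the test in siLSM14A HU alone (adjusted p = 0.0276), where leaving out replicate 1 or 3 gave an adjusted p of 0.162 or 0.156. With the GC correction (exons 40.9% GC) the direction turned, to 0.42, 0.40, 0.35 and 0.20, past the test in the first 3 and at an adjusted p of 0.0737 in siLSM14A HU.

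HMOX1, haem oxygenase-1, frees iron from haem and is a well-known stress-induced gene. In siCTRL NT it had 17.2, 17.8 and 15.7 CPM in total RNA and 32.1, 38.1 and 24.8 CPM in polysomal RNA, and in siCTRL HU 16.7, 19 and 14.9 against 34.3, 39.7 and 33.7 CPM. In siLSM14A NT it had 20.4, 23.9 and 19.9 against 32.4, 51.8 and 41 CPM, and in siLSM14A HU 23.5, 22.8 and 20.7 against 43.9, 46.6 and 38.1 CPM. The polysomal value was above the total value in every culture. HMOX1 changed by 0.90 ± 0.166, 1.11 ± 0.132, 0.99 ± 0.179 and 0.94 ± 0.111 (SE) in siCTRL NT, siCTRL HU, siLSM14A NT and siLSM14A HU, with adjusted p-values of 0.00195, 3.03e-05, 0.00144 and 0.000172. HMOX1 has the highest GC content of the 8 genes (58.5%), and with the GC correction the change was 0.25 (adjusted p = 0.0856), 0.30, 0.31 and 0.34.

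**Figure D3:**
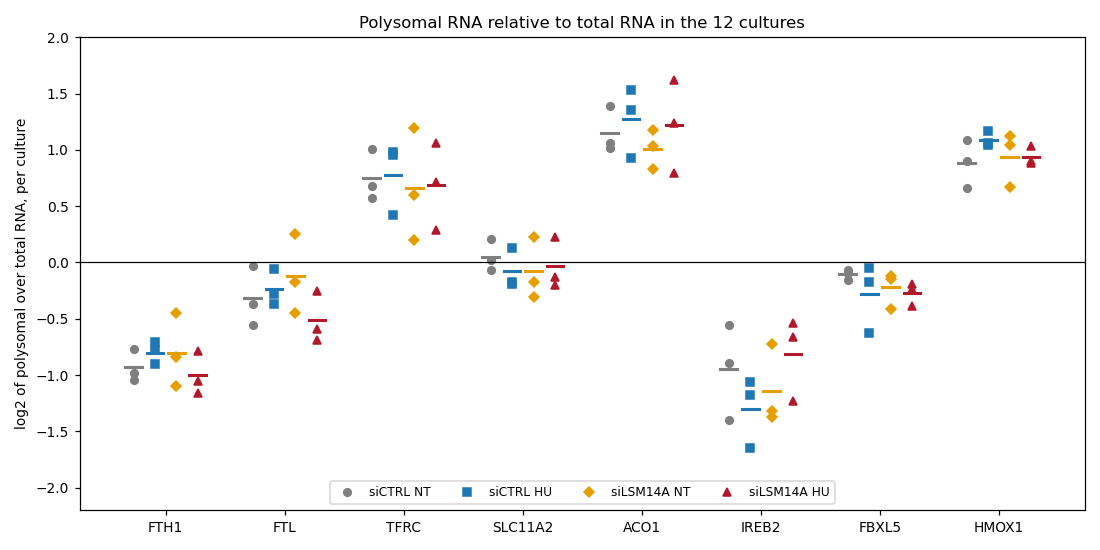
TE, the log2 ratio of polysomal to total RNA, of the 8 tested genes in each of the 12 cultures; colours and symbols give the condition and short lines the mean of 3 cultures. TFRC, ACO1 and HMOX1 were above 0 and FTH1, IREB2 and FBXL5 below 0 in all 12 cultures, while FTL was below 0 in 11.

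As a group, the members were spread over the fractions much as other genes were. Of the 8 tested, 3 were higher and 2 lower in polysomal RNA in siCTRL NT (edgeR, adjusted p under 0.05), where 31.4% of 12431 genes were higher and 32.3% lower. The counts were the same in siCTRL HU, against 36.2% and 37.4% of 12479 genes, and in siLSM14A NT, against 32.1% and 32.3% of 12528 genes. In siLSM14A HU 3 were higher and 4 lower, against 32.8% and 34.1% of 12377 genes. The median change of the members was -0.03, -0.12, -0.06 and -0.15 in the 4 conditions, beside -0.03, -0.05, -0.03 and -0.04 over all genes tested. All 12 polysomal libraries were above all 12 total libraries for 3 members and for 24% of all genes, and below them for 2 members and for 25.3%.

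GC content moved with these differences across the transcriptome. The change of polysomal against total RNA correlated with the GC content of the exons across genes, with a Spearman coefficient of 0.639 to 0.709 in the 4 conditions, over genes measured in the same libraries. After the correction it was 0.00864 to 0.0213, and the members called were 7, 8, 7 and 6 of 8 in siCTRL NT, siCTRL HU, siLSM14A NT and siLSM14A HU, beside 54.8%, 57.1%, 55.6% and 58.5% of all genes. FTH1, TFRC and ACO1 kept both direction and call in all 4 conditions with the correction. The part of GC content in the members' values was not tested beyond this correction. FTH1 and FTL have coding sequences of 549 and 525 bases, against a median of 1416 over the genes tested. Across genes, the change of polysomal against total RNA had a Spearman coefficient with coding length of -0.0632 to 0.0489 in the 4 conditions. With mRNA length it was -0.345 to -0.255. A coefficient over all genes does not describe the shortest coding sequences alone. The part of coding or mRNA length in the members' values was not tested.

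**Figure D4:**
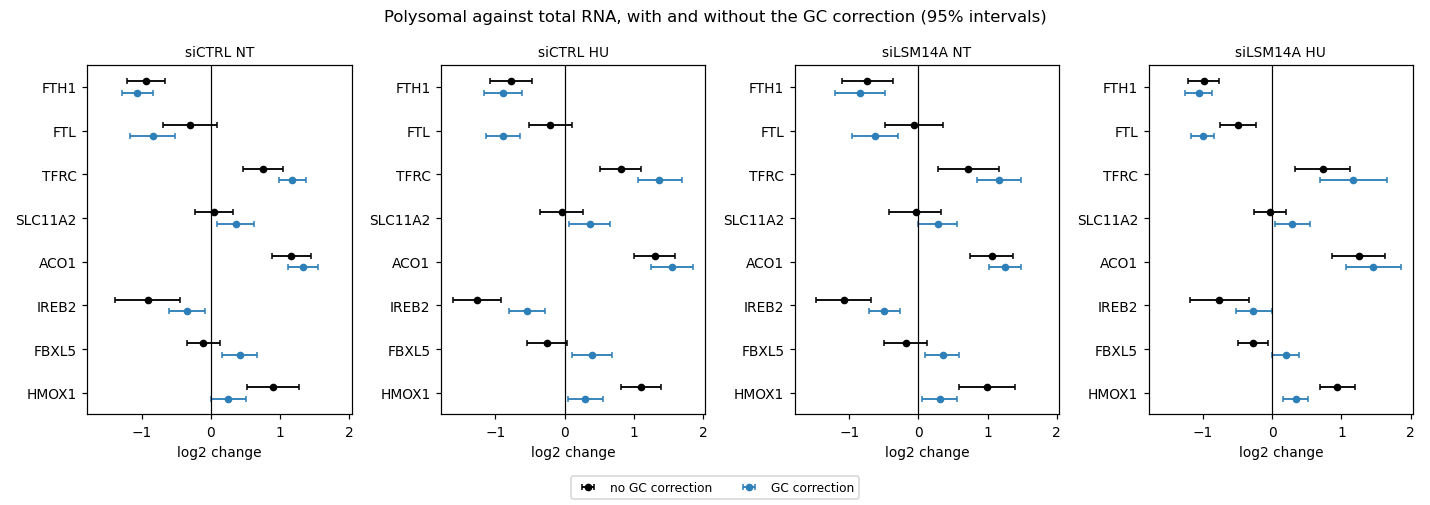
Log2 change of polysomal against total RNA with 95% intervals for the 8 tested genes in each condition, without (black) and with (blue) the GC correction. FTH1 stays below 0 and TFRC and ACO1 above 0, HMOX1 and IREB2 move towards 0, FTL moves away from 0, and FBXL5 crosses it.

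Knockdown of LSM14A was compared next, first in total RNA. No member passed the test without HU, where 0.566% of 12544 genes did, or with HU, where 0.802% of 12475 genes did. An unadjusted p under 0.05 was found for 4 of the 8 members in each case, beside 1349 and 1065 of all genes. DESeq2 called 1 member in each, beside 187 and 189 of all genes. The changes were small, with a member median of 0.16 without and 0.12 with HU on the log2 scale, beside 0.00 for all genes.

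HMOX1 had the highest change among the members in both states. The 3 siLSM14A cultures given above lay at 19.9 to 23.9 CPM without HU and 20.7 to 23.5 CPM with HU, and the siCTRL cultures at 15.7 to 17.8 and 14.9 to 19 CPM. The groups did not overlap. The change in total RNA was 0.34 ± 0.0883 (SE, 95% interval 0.14 to 0.53, adjusted p = 0.174) without HU and 0.40 ± 0.0951 (0.19 to 0.61, adjusted p = 0.0949) with HU. In the HU comparison, deviations of total RNA libraries with the same replicate number had correlations of 0.345, 0.189 and 0.269. Without HU these were -0.258, 0.272 and -0.222, and the labels name no batch, so it is not known whether the numbers pair the cultures. A fit with the replicate number as a block gave 0.40 for HMOX1 with HU, with an adjusted p of 9.16e-06. DESeq2 (adjusted p = 0.0128) and the fit without a filter on low counts (adjusted p = 0.0341) also called it with HU. Over the alternatives with HU the adjusted p of HMOX1 ran from 9.16e-06 to 1, the highest coming from the fit of all 24 libraries together.

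The ferritins and SLC11A2 showed smaller changes of the same sign. With HU, FTL was at 2454, 2377 and 2402 CPM in siLSM14A against 2235, 2228 and 1993 CPM in siCTRL, a log2 change of 0.16 (0.04 to 0.28, adjusted p = 0.335), and without HU the change was 0.04. FTH1 changed by 0.18 (0.03 to 0.34, adjusted p = 0.391) without HU and by 0.14 (adjusted p = 0.583) with HU. SLC11A2 changed by 0.16 (adjusted p = 0.63) without and 0.19 (adjusted p = 0.449) with HU. With the replicate block FTL (adjusted p = 0.0211) and SLC11A2 (adjusted p = 0.00539) passed in the HU comparison, although over the alternatives their adjusted p reached 1. With the block 3 of 8 members were thus called higher, beside 3.23% of all genes. With block and GC correction together HMOX1 and SLC11A2 were called, a setting for which the share of all genes is not given here.

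FBXL5 and IREB2 stood apart without HU only by their values. FBXL5 was at 56.9, 53.1 and 58.6 CPM in siLSM14A NT and 49.2, 44.7 and 45.2 CPM in siCTRL NT, a log2 change of 0.27 (0.14 to 0.41, adjusted p = 0.111; DESeq2 adjusted p = 0.0239, up to 1 over the alternatives), and with HU the change was 0.07 (-0.09 to 0.22). IREB2 changed by 0.16 (0.05 to 0.28, adjusted p = 0.296) and 0.09. TFRC, whose IREs bear on its amount, changed by -0.08 (-0.26 to 0.09) and -0.11 (-0.23 to 0.02), and ACO1 by 0.04 and 0.05. All 3 siLSM14A cultures were above all 3 siCTRL cultures for FBXL5, HMOX1 and IREB2 without HU, beside 9.45% of all genes, and for FTH1, FTL and HMOX1 with HU, beside 7.94%.

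In polysomal RNA the knockdown gave no call among the members, beside 0.0162% of 12342 genes without HU and 0.0653% of 12256 genes with HU, and DESeq2 called none of them either. The interval of FTH1 was -0.08 to 0.77 without HU and -0.43 to 0.32 with HU. IREB2 had the highest change, 0.62 (0.14 to 1.10, adjusted p = 0.739) with HU, against -0.04 without HU. HMOX1 changed by 0.40 (adjusted p = 1) and 0.26 (adjusted p = 0.739).

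TE, the polysomal change beyond that in total RNA, was tested by the interaction between fraction and condition in 1 model over both kinds of library. No gene passed in any TE comparison (0 of 12757, 12649, 12693 and 12660 genes for knockdown without HU, knockdown with HU, HU in siCTRL and HU in siLSM14A, 0%), and DESeq2 called none; 111, 487, 293 and 179 genes, and none of the members, had an unadjusted p under 0.05. The TE of FTH1 changed by 0.17 (95% interval -0.29 to 0.63) on knockdown without HU and by -0.19 (-0.56 to 0.17) with HU. FTL changed by 0.21 (-0.38 to 0.80) and -0.26 (-0.65 to 0.12), the latter -0.094 with the GC correction. These values rested partly on siLSM14A NT replicate 2, whose polysomal library had the highest FTH1, FTL and HMOX1 and the lowest TFRC and ACO1 of the 12; without it the changes without HU were -0.03 for FTH1 and -0.02 for FTL. TFRC changed by -0.06 in both states, with intervals of -0.59 to 0.47 and -0.55 to 0.43.

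IREB2 showed the highest TE change of the members, 0.52 (-0.03 to 1.07, adjusted p = 0.778) on knockdown with HU, against -0.20 (-0.82 to 0.43) without HU. Its TE was -1.06, -1.65 and -1.18 in the 3 siCTRL HU cultures and -0.54, -1.23 and -0.66 in the 3 siLSM14A HU cultures, and the groups overlapped. The 4 cultures with the highest IREB2 TE, from -0.72 to -0.54, were also the 4 in which TE correlated least with GC content across genes (Spearman 0.417 to 0.57, against 0.628 to 0.728 in the other 8). This match was found after the values were seen and was not tested. With the GC correction the TE change of IREB2 on knockdown with HU was 0.29.

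No member passed the test for HU. In total RNA none of 12506 genes (0%) in siCTRL and none of 12497 (0%) in siLSM14A passed, with 180 and 650 genes at an unadjusted p under 0.05 and 1 and 0 genes called by DESeq2. FTH1 changed by 0.09 (-0.08 to 0.25) in siCTRL and 0.04 (-0.08 to 0.16) in siLSM14A, TFRC by -0.02 (-0.16 to 0.12) and -0.05 (-0.21 to 0.11), and HMOX1 by -0.01 (-0.22 to 0.21) and 0.06 (-0.13 to 0.25). FTL was the only member at an unadjusted p under 0.05, with 0.17 (0.02 to 0.32, adjusted p = 0.855) in siLSM14A against 0.05 in siCTRL. In polysomal RNA 0 of 12315 and 0 of 12290 genes passed by edgeR and by DESeq2, with 259 and 107 genes and none of the members at an unadjusted p under 0.05. In TE, FTH1 changed by 0.15 (-0.24 to 0.53) in siCTRL and -0.23 (-0.68 to 0.21) in siLSM14A, FTL by 0.07 (-0.42 to 0.56) and -0.41 (-0.92 to 0.09), and IREB2 by -0.37 (-0.95 to 0.21) and 0.33 (-0.26 to 0.93). Without siLSM14A NT replicate 2 the changes in siLSM14A were -0.03 for FTH1 and -0.18 for FTL. Across genes, the TE change with HU had a Spearman coefficient with coding length of 0.445 in siLSM14A and -0.0288 in siCTRL. With mRNA length it was 0.475 and -0.218. The part of either length in the members' TE changes was not tested. The response to HU was not shown to differ between the siRNAs, since no member passed the interaction test in total RNA, polysomal RNA or TE (0 of 12666, 12515 and 12855 genes, with 367, 134 and 244 at an unadjusted p under 0.05, none of them a member, and 0 by DESeq2). The HU comparisons and the knockdown comparisons share cultures and are not independent.

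**Figure D5:**
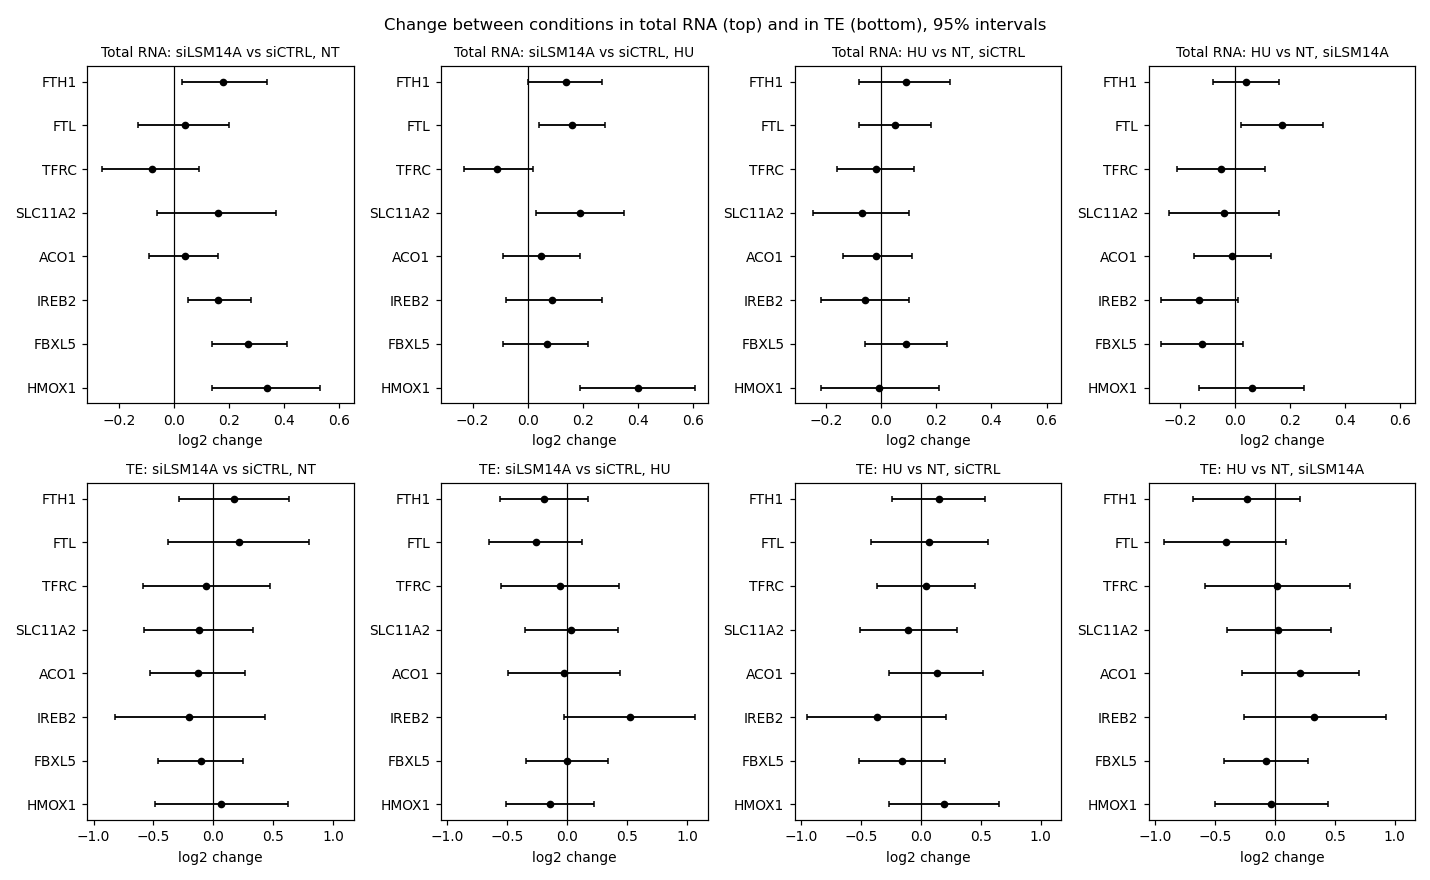
Log2 change of the 8 tested genes between conditions with 95% intervals, in total RNA (top row) and in TE (bottom row, wider scale), for the knockdown without and with HU and for HU in siCTRL and siLSM14A cells. HMOX1 has the highest change in total RNA on knockdown (0.34 and 0.40), and the TE intervals of all 8 genes include 0.

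The wider iron pathway was described with 64 further genes in 4 lists. In polysomal against total RNA, 27 were higher and 12 lower of 58 tested in siCTRL NT, 31 and 13 of 57 in siCTRL HU, 30 and 11 of 57 in siLSM14A NT, and 24 and 14 of 57 in siLSM14A HU, beside the shares of all genes given above. Of 15 tested haem genes, 8 were higher and 2 lower in siCTRL NT, with a median change of 0.43 beside -0.03 for all genes. Of 20 genes of iron-sulphur cluster assembly, 10 were higher and 3 lower, with a median of 0.34. Of 16 genes of iron uptake, transport, storage and export, 6 were higher and 4 lower, with a median of 0.44, and of 7 other genes with a described IRE, 3 were higher and 3 lower, with a median of 0.06. In siCTRL HU, siLSM14A NT and siLSM14A HU the medians were 0.63, 0.58 and 0.20 for the haem genes, 0.36, 0.39 and 0.24 for iron-sulphur assembly, 0.61, 0.60 and 0.35 for uptake, transport, storage and export, and 0.14, 0.18 and 0.01 for the other genes with an IRE. These counts and medians of the lists are without the GC correction. None of the 64 genes passed in total RNA, polysomal RNA or TE between conditions.

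SLC25A37 and BACH1 were among the 3 lower genes of smallest p in all 4 conditions. SLC25A37 (mitoferrin-1), which carries iron into mitochondria, changed by -1.39 ± 0.25, -1.42 ± 0.184, -1.47 ± 0.186 and -1.42 ± 0.176 (SE) in siCTRL NT, siCTRL HU, siLSM14A NT and siLSM14A HU, and by -1.42, -1.40, -1.47 and -1.40 with the GC correction. BACH1, the haem-sensing repressor of HMOX1, changed by -1.25, -1.65, -1.44 and -1.26, and by -0.68, -0.96, -0.87 and -0.76 with the correction. ABCB10, a mitochondrial carrier linked to haem synthesis, changed by -1.09, -1.34, -1.23 and -1.07 in the same order of conditions. CDC42BPA, a kinase whose mRNA has a described IRE, changed by -1.24, -1.21, -1.08 and -0.94. ISCA1, an iron-sulphur assembly factor, changed by -0.73, -0.82, -0.66 and -0.74. Each of these genes passed the test in all 4 conditions. With the GC correction ABCB10 changed by -0.93 in siLSM14A NT and -0.78 in siLSM14A HU. CDC42BPA changed by -0.67 in siCTRL HU and ISCA1 by -0.32 in siCTRL NT with it.

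The higher genes of smallest p came from several of the lists. ALAS1, which starts haem synthesis, changed by 1.16 ± 0.114 (SE, adjusted p = 0.000267) in siCTRL NT. UROD, a later enzyme of the pathway, changed by 1.15 in siLSM14A HU. FDXR, which feeds electrons to iron-sulphur assembly, changed by 1.51 in siCTRL HU and 1.43 in siLSM14A HU (0.64 and 0.78 with the GC correction). CIAPIN1, of the cytosolic assembly machinery, changed by 1.21 in siCTRL NT and 1.23 in siLSM14A NT, and MMS19, of the same machinery, by 1.26 in siLSM14A NT. HERC2, a ubiquitin ligase that acts on FBXL5 and NCOA4, changed by 1.37, 1.28 and 1.38 in siCTRL HU, siLSM14A NT and siLSM14A HU, and MELTF, melanotransferrin, by 1.22 in siCTRL HU. With the GC correction the same changes were 0.86 for ALAS1, 0.78 for UROD, 1.28 and 1.33 for CIAPIN1 and 0.92 for MMS19. Those of HERC2 were 0.99, 0.96 and 1.1, and that of MELTF was 0.62. Without the correction FDXR was also higher in siCTRL NT (1.28) and siLSM14A NT (1.53). So were CIAPIN1 in siCTRL HU (1.14) and siLSM14A HU (1.05), and HERC2 in siCTRL NT (1.23). ALAS1 was also higher in siLSM14A NT (1.27), and MMS19 and MELTF in siCTRL NT (1.24 and 1.07). UROD was also higher in siCTRL HU (1.31) and siLSM14A NT (1.32).

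The genes whose TE ran most like that of a member over the 12 cultures were listed by Pearson correlation among 12803 genes, as a description over shared libraries. For FTH1 they were NHP2 (0.95), HIGD2A (0.946) and JTB (0.941). For TFRC they were IPO5 (0.966), ELP2 (0.942) and SLC25A13 (0.937).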

How the data were processed

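Counts of reads per gene were deposited for 24 libraries. After trimming, the authors used STAR 2.6.1a both to map reads to hg19 and to count them on Gencode genes, and they deposited these raw counts with no normalization; the strand setting is not given in the sources used here. Groups and replicate numbers came from the deposited labels. Gene types, GC content and UTRs came from Gencode v44 lifted to hg19 (19086 of 20345 IDs protein-coding, 551 of another type, 708 not in it), and IREs were searched in Python 3.11.15 with pysam 0.24.0.

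Tests covered protein-coding genes and used edgeR 4.0.16 under R 4.3.3 (quasi-likelihood F-test, TMM, filterByExpr at a minimum count of 10 and total of 15), with Benjamini-Hochberg adjustment over all genes tested; calls are at an adjusted p under 0.05. Library totals of 24789280 to 44897501 counts set the counting error. TE was the interaction of fraction and condition, and per culture the difference of log2 CPM (prior count 2). The tests were tried on simulated data. The GC correction used loess curves (span 0.3) of log2 CPM on GC content as offsets. GC content was taken over the exons of all annotated transcripts of a gene together, and that of the main mRNA alone was not tried. These exons span 17376 bases for TFRC, against 5012 in its main mRNA. For SLC11A2 they span 9888 against 4132, and for FTH1 2004 against 1203. Alternatives were RLE size factors, DESeq2 1.42.0, no filter, at least 10 counts in every library, all genes, the replicate number or culture as a block, the GC correction with and without the block, all 24 libraries in 1 fit, and leaving out each culture. Total and polysomal libraries of a number come from the same culture. Between conditions, the labels do not say whether libraries of the same number share a batch. All 3 correlations of deviations were over 0.1 in total RNA of siLSM14A against siCTRL with HU (0.345, 0.189 and 0.269). They were also over 0.1 in total (0.267, 0.243 and 0.182) and polysomal RNA (0.251, 0.186 and 0.459) of HU against NT in siCTRL. Replicates of a group differed by more than sampling noise (chi-square per gene 6.18 to 122).

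The members and lists were chosen with earlier results of these data known. All 10 members are named, and of the lists up to 3 genes of smallest p per direction and comparison among those called, apart from results that are not reported here. P-values take the 3 cultures of a condition as replicates. The main fits of polysomal against total RNA and of TE did not pair the total and polysomal library of a culture. Their SEs, intervals and p-values therefore take these libraries as independent. Within a condition the replicate block pairs them, and the members called stayed at 5, 5, 5 and 7 in siCTRL NT, siCTRL HU, siLSM14A NT and siLSM14A HU.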

Additional observations from a re-analysis of the deposited data

How the results depend on the processing

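The number of members called was within 1.5 times its value under each alternative run, with these exceptions. For polysomal against total RNA in siCTRL HU it was 8 with the GC correction, beside 57.1% of all genes, in place of 5. It was also 8 with the replicate block and GC correction together. For total RNA on knockdown without HU it was 1 with DESeq2, in place of 0. With HU it was 1 with DESeq2, 1 with no filter on low counts, 3 with the replicate block and 2 with the replicate block and GC correction. Leaving out 1 culture at a time gave 3 to 5 members in siLSM14A NT (main 5, lowest without replicate 3) and 4 to 7 in siLSM14A HU (main 7, lowest without replicate 1). For these fits, the fit with no filter and the block with GC correction, the share of all genes is not given here. Over all genes DESeq2 called 187 and 189 in total RNA on knockdown without and with HU, in place of 71 and 100, and 8 and 20 in polysomal RNA, in place of 2 and 8. The replicate block changed no other count of members. The labels mark no shared batch in any comparison. Where the correlations of deviations were not all over 0.1, the block moved no member past the threshold, and the correlations went as low as -0.496.

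Of 77 log2 changes of members, followed over 1093 fits, 1012 kept direction and side of the threshold, 11 fell below it, 17 passed it and 53 turned direction, 33 of these on leaving out a culture. For FBXL5 in polysomal against total RNA, the GC correction gave 0.42, 0.40, 0.35 and 0.20 in siCTRL NT, siCTRL HU, siLSM14A NT and siLSM14A HU, and with the replicate block 0.41, 0.38, 0.34 and 0.20. For SLC11A2 it gave 0.36, 0.28 and 0.29 in the last 3, with the block 0.35, 0.27 and 0.29, and RLE size factors and DESeq2 gave 0.0015 and 0.0014 in siLSM14A HU. The TE change of FTL with HU in siCTRL was -0.060 with the GC correction and -0.050 with both. For TFRC with HU in siLSM14A both together gave -0.0018 in TE and 0.0010 in total RNA. In each case the main value was near 0, apart from FBXL5, and the cause was not tested.

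Leaving out a culture gave these ranges where the direction turned. For SLC11A2 in polysomal against total RNA they were -0.028 to 0.12 in siCTRL NT, -0.16 to 0.015 in siCTRL HU, -0.22 to 0.055 in siLSM14A NT and -0.15 to 0.058 in siLSM14A HU, and for FTL in siLSM14A NT -0.28 to 0.081. In TE on knockdown without HU they were -0.033 to 0.31 for FTH1, -0.022 to 0.38 for FTL, -0.33 to 0.14 for TFRC and -0.43 to 0.036 for IREB2, and with HU -0.26 to 0.097 for TFRC. In TE with HU they were -0.048 to 0.25 for FTL and -0.056 to 0.21 for TFRC in siCTRL, and -0.18 to 0.29 for TFRC in siLSM14A. In total RNA they were -0.021 to 0.11 for FTL on knockdown without HU, and -0.075 to 0.035 and -0.13 to 0.026 for TFRC with HU in siCTRL and siLSM14A. In polysomal RNA they were -0.28 to 0.22 for IREB2 without HU and -0.15 to 0.028 for FTH1 with HU, both on knockdown.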
